A study of Mus musculus with 6 samples.

Results

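Accessible regions in and around the 4 Hox clusters were taken from the joint set of 495233 regions that 3 ATAC-seq samples gave. A region was a member if it overlapped a window of mm9 around a cluster: chr6:51600000-52720000 for HoxA, chr11:95550000-96730000 for HoxB, chr15:102250000-103370000 for HoxC or chr2:74000000-75110000 for HoxD. This rule used position alone and found 1201 members (0.243% of all regions), of which 313 were in the HoxA, 334 in the HoxB, 319 in the HoxC and 235 in the HoxD window. The body of a cluster was its window less 500 kb at each end, and regions that touched the body were body regions. The bodies held 187 members and the flanks 1014. Of these, 1 region crossed the edge of a body and 2 crossed the edge of a window.

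All samples came from R1, a mouse embryonic stem cell line, and shared 1 condition. The cells were made into embryoid bodies in hanging drops and then kept with retinoic acid for up to 6 days, at 0.5 mM as the labels give it, a unit that is uncertain because micromolar doses are usual. ATAC-seq, in which the transposase Tn5 cuts open DNA and tags it with adapters, was run on 3 samples, and polyadenylated RNA was sequenced from 3 further samples. No untreated or earlier sample was analysed here, so the data give levels at this stage and no change. Each region carries 1 score for the 3 ATAC-seq samples together, on a scale that the sources used here do not give, so regions have no replicate values, read depth is unknown, and no test between body and flanks was made. The intervals below are 95% intervals of counts of regions. They cover counting error only, and neighbouring regions may belong to 1 open stretch of chromatin. The cells are labelled as embryonic stem cells, but of 6 pluripotency markers Nanog, Pou5f1 and Dppa3 were below 1 FPKM (fragments per kilobase of transcript, scaled to the library, a level per length) in every replicate. Zfp42, Esrrb and Klf4 had means of 2.14, 6.17 and 10.4 FPKM. The means of all 6 neuronal markers lay between 99.9 and 645 FPKM, those of 5 neural progenitor markers between 11.5 and 910.4, and those of 4 feeder fibroblast markers between 0.103 and 0.386. Extraembryonic endoderm markers were present too, with a summed level of 34.6, 49.7 and 50.8 FPKM over 5 genes in the 3 replicates. Their part in the accessibility measured here was not tested.

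Hox genes encode homeodomain transcription factors that give cells their position along the body axis. In each cluster, the genes lie in the order in which they are used along that axis, with low-numbered paralogue groups at the end called anterior here and high-numbered groups at the posterior end. Retinoic acid is known to act on the anterior genes first, Polycomb complexes are known to keep unused genes silent, and long flanks that hold few genes are known to carry enhancers of HoxA and HoxD. By gene order, the anterior end is at the lower coordinates in HoxA and at the higher coordinates in HoxB, HoxC and HoxD. Gene positions in mm9 were not used here, so regions are described by their distance from the anterior end of the body and are not assigned to single genes.

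The DNA just upstream of these genes differed widely in CG dinucleotides, the site of DNA methylation in mammals. RefSeq promoters of the build GRCm38.p6 matched 22 of the 39 Hox genes, with 24 start sites. The 250 bases before the start held 2 to 35 CG dinucleotides, with a median of 12.5 against 6 over 32851 promoters of the same length. The median was 12 for 13 start sites of expressed Hox genes and 13 for 11 of Hox genes that were not expressed. The highest Hox genes of the HoxA, HoxB and HoxC clusters, Hoxa5, Hoxb8 and Hoxc4, the highest of HoxD, Hoxd4, and the unexpressed Hoxa13 are shown to make this range visible, with CG in capitals and the start of transcription just after the last base. They held 28, 12, 8, 3 and 35 CG dinucleotides in this order, at chr6:52204588-52204837 (minus strand), chr11:96281655-96281904 (plus strand), chr15:103034145-103034394 (plus strand), chr2:74721728-74721977 (plus strand) and chr6:52260881-52261130 (minus strand) of GRCm38.p6. These coordinates are of another build than the mm9 coordinates of the regions and cannot be set against them.
Hoxa5: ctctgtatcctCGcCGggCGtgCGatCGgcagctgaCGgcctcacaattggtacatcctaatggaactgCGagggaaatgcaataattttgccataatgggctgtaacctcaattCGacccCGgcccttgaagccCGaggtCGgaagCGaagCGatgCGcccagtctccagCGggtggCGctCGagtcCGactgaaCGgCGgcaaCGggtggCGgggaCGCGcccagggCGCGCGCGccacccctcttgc
Hoxb8: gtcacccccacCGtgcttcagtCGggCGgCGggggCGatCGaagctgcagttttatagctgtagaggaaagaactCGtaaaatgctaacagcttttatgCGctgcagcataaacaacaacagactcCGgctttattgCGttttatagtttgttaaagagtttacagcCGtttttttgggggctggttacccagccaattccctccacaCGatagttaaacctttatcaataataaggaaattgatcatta
Hoxc4: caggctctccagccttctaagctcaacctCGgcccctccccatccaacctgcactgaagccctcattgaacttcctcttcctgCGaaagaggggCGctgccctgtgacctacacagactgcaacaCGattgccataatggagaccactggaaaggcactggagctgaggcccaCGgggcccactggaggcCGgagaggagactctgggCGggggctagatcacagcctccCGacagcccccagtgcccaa
Hoxd4: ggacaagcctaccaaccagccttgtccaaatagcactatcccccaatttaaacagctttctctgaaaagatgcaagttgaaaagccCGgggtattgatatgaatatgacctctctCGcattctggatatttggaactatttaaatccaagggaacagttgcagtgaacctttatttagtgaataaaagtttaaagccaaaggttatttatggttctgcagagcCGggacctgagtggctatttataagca
Hoxa13: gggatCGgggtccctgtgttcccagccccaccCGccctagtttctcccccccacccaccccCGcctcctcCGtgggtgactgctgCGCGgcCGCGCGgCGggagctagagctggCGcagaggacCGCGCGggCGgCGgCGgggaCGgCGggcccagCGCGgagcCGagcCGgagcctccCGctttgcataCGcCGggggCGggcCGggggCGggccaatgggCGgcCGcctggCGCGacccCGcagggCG

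Each cluster body held more regions per length than its flanks, and a larger share of its bases lay in regions, by the least in HoxC. The bodies of HoxA, HoxB, HoxC and HoxD, which span 120, 180, 120 and 110 kb, held 43, 65, 42 and 37 regions. This is 35.8, 36.1, 35.0 and 33.6 regions per 100 kb, nearly the same density in the 4 bodies, while the flanks held 27.0, 26.9, 27.7 and 19.8. The density in the body was 1.33 times that of the flanks in HoxA (interval 0.939 to 1.84), 1.34 times in HoxB (1.008 to 1.77), 1.26 times in HoxC (0.891 to 1.75) and 1.70 times in HoxD (1.16 to 2.42). For HoxA and HoxC the interval includes equal densities. With only the regions at or above the median score of all regions, the HoxA ratio was 1.85 (1.22 to 2.73) and its interval no longer included equal densities. Over all autosomes the set held 19.9 regions per 100 kb.

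The share of bases covered separated bodies from flanks more than the number of regions did. In HoxA 33.3% of the body was covered against 12.1% of the flanks, a ratio of 2.75. In HoxD the shares were 28.9% and 7.55%, a ratio of 3.83. In HoxB they were 28.1% and 15.8% (1.77), and in HoxC 27.2% and 19.4% (1.40), where the ratio was 1.22 with flanks of 250 kb. The autosomal share was 9.65%, so the HoxD flanks lay below it and the other flanks above. The 4 bodies thus lay within a narrow range of coverage, and by coverage the clusters differed more in their flanks. This holds for coverage alone: the median score of the body regions ranged from 8.22 in HoxB to 14.5 in HoxD.

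**Figure D1:**
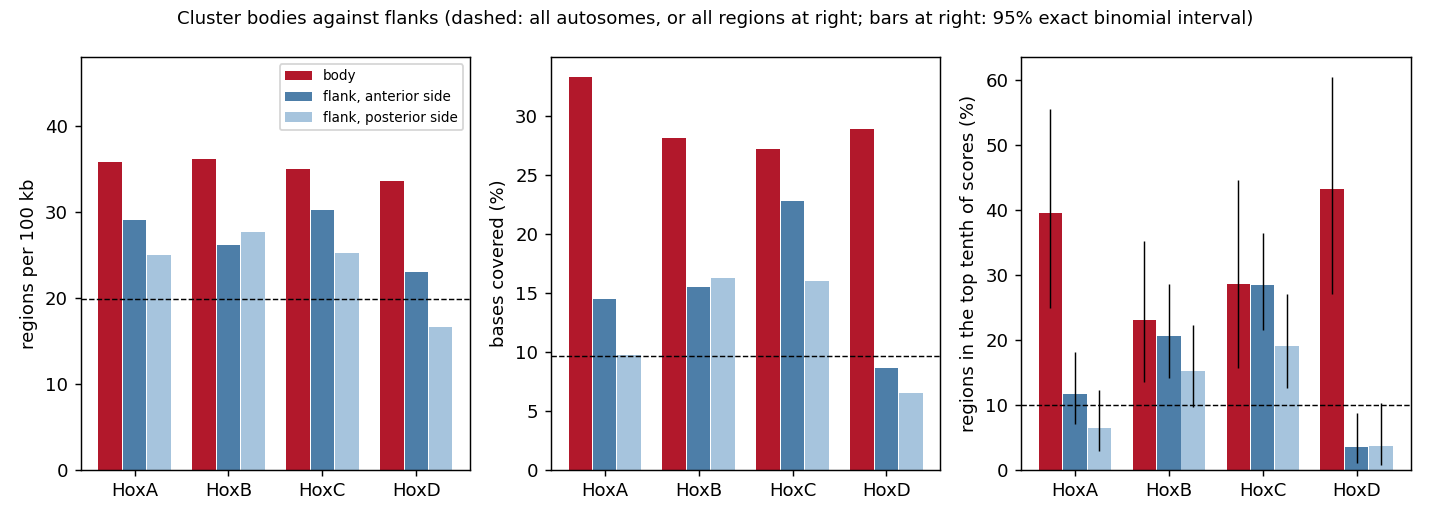
Regions per 100 kb, percent of bases covered and percent of regions with a score in the highest 10% of all regions, for the body and each flank of the 4 clusters; dashed lines give the value over all autosomes or, at right, all regions, and error bars at right are 95% exact binomial intervals. The 4 bodies lie between 33.6 and 36.1 regions per 100 kb, while their flanks range from 16.6 to 30.2.

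Set beside all autosomal tiles of the same length, the bodies stood out by covered bases and less so by number. The HoxA body had more regions than 87.2% of 20591 tiles of 120 kb, but only 9 of these tiles had as many covered bases or more. For HoxB the number of regions stood at percentile 89.3 and the covered bases at 99.8 among 13724 tiles of 180 kb. HoxC stood at 85.4 and 99.2, and HoxD, among 22463 tiles of 110 kb, at 82.3 and 99.6. Among 4936 tiles of 500 kb, the flanks of HoxD were ordinary or low, with covered bases at percentile 48.1 on the anterior side and 38.5 on the posterior side. The anterior flank of HoxC stood at 98.3 and its posterior flank at 79.4. The flanks of HoxA (73.5 anterior, 53.0 posterior) and HoxB (77.2 and 80.2) lay between those of HoxD and the anterior flank of HoxC. These percentiles describe 1 joint set of regions and are no test.

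Regions in the bodies were wider. Their median width was 610 bp against 351 bp in the flanks and 332 bp over all regions. Of 187 body regions, 50 (26.7%) were at least 1 kb wide, against 113 of 1014 flank regions (11.1%) and 8.68% of all regions. HoxD had the largest share, with 14 of 37 body regions (37.8%) at least 1 kb wide against 6 of 198 flank regions (3.03%). HoxC was the exception in median width, with 393 bp in the body and 462 bp in the flanks. Regions of at least 3 kb, which make up 0.210% of all regions, numbered 4 in the bodies and 3 in the flanks.

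Scores were also higher in the bodies, most of all in HoxD and HoxA. The median score was 8.24 in the HoxA body and 5.46 in its flanks, 8.22 and 5.88 in HoxB, 8.96 and 6.61 in HoxC, and 14.5 and 4.83 in HoxD. Over all regions the median was 5.24. In HoxD 4 of 37 body regions (10.8%) scored below that median against 110 of 198 (55.6%) in its flanks, where 50% of all regions do by definition. Wider regions had higher scores throughout, with a Spearman's rho of width and score between 0.715 and 0.844 over the regions of a body and between 0.755 and 0.809 over those of its flanks. Width and score of a region share its reads, so they are not separate evidence.

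A score of at least 17.5 put a region in the highest 10% of the whole set, and such regions are called strong here. In HoxA 17 of 43 body regions (39.5%; interval 24.98% to 55.6%) were strong against 25 of 270 in the flanks (9.26%; 6.08% to 13.4%). In HoxD 16 of 37 (43.2%; 27.1% to 60.5%) were strong against 7 of 198 (3.54%; 1.43% to 7.15%). In HoxB the shares were 15 of 65 (23.1%; 13.5% to 35.2%) and 48 of 269 (17.8%; 13.5% to 23.0%), and in HoxC 12 of 42 (28.6%; 15.7% to 44.6%) and 67 of 277 (24.2%; 19.3% to 29.7%). The body exceeded the flanks by 30.3 percentage points in HoxA (interval 16.5 to 45.4) and by 39.7 in HoxD (24.7 to 55.7). In HoxB and HoxC the difference was 5.23 points (-4.69 to 17.5) and 4.38 points (-8.22 to 20.1), and both intervals include no difference. The threshold mattered. With regions in the upper quartile of scores the HoxB difference was 17.4 points (4.07 to 30.2). This interval, which covers counting error only, did not include no difference. With the highest 5% of scores the HoxB difference was 5.67 points (-1.81 to 16.4), and its interval included no difference. At that threshold the difference was 26.9 points in HoxA (14.9 to 41.9) and 14.7 in HoxD (5.68 to 29.7). HoxD thus came before HoxA with the highest 10% and after it with the highest 5%. In the highest 5% were 13 of 43 body regions of HoxA (30.2%), 9 of 65 of HoxB (13.8%), 7 of 42 of HoxC (16.7%) and 6 of 37 of HoxD (16.2%), against 5% of all regions. Per length, strong regions were 5.67 times as dense in the HoxA body as in its flanks (2.87 to 10.9) and 20.8 times in HoxD (8.09 to 59.7). The ratios of 1.74 in HoxB (0.903 to 3.15) and 1.49 in HoxC (0.735 to 2.78) have intervals that include equal densities.

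The strong regions of the bodies were wide for strong regions. Of the 60 strong body regions, 43 (71.7%) were at least 1 kb wide, against 76 of 147 (51.7%) in the flanks and 47.4% of all strong regions. Pooled over the 4 clusters, their median score was 34.9 against 30.9 in the flanks and 32.5 over all strong regions. This order did not hold within every cluster. The median of strong regions was higher in the body than in the flanks in HoxA and HoxB. It was lower in the body in HoxC (32.8 and 38.7) and in HoxD (28.6 and 32.2). The highest score of each window lay in a flank: 276 in HoxA, 267 in HoxB, 305 in HoxC and 171 in HoxD, where the bodies reached 161, 81.1, 174 and 60.5. In the highest 1% of all scores were 2 of 187 body regions (1.07%; interval 0.130% to 3.81%) and 19 of 1014 flank regions (1.87%; 1.13% to 2.91%). The body share was thus at the level of all regions.

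**Figure D2:**
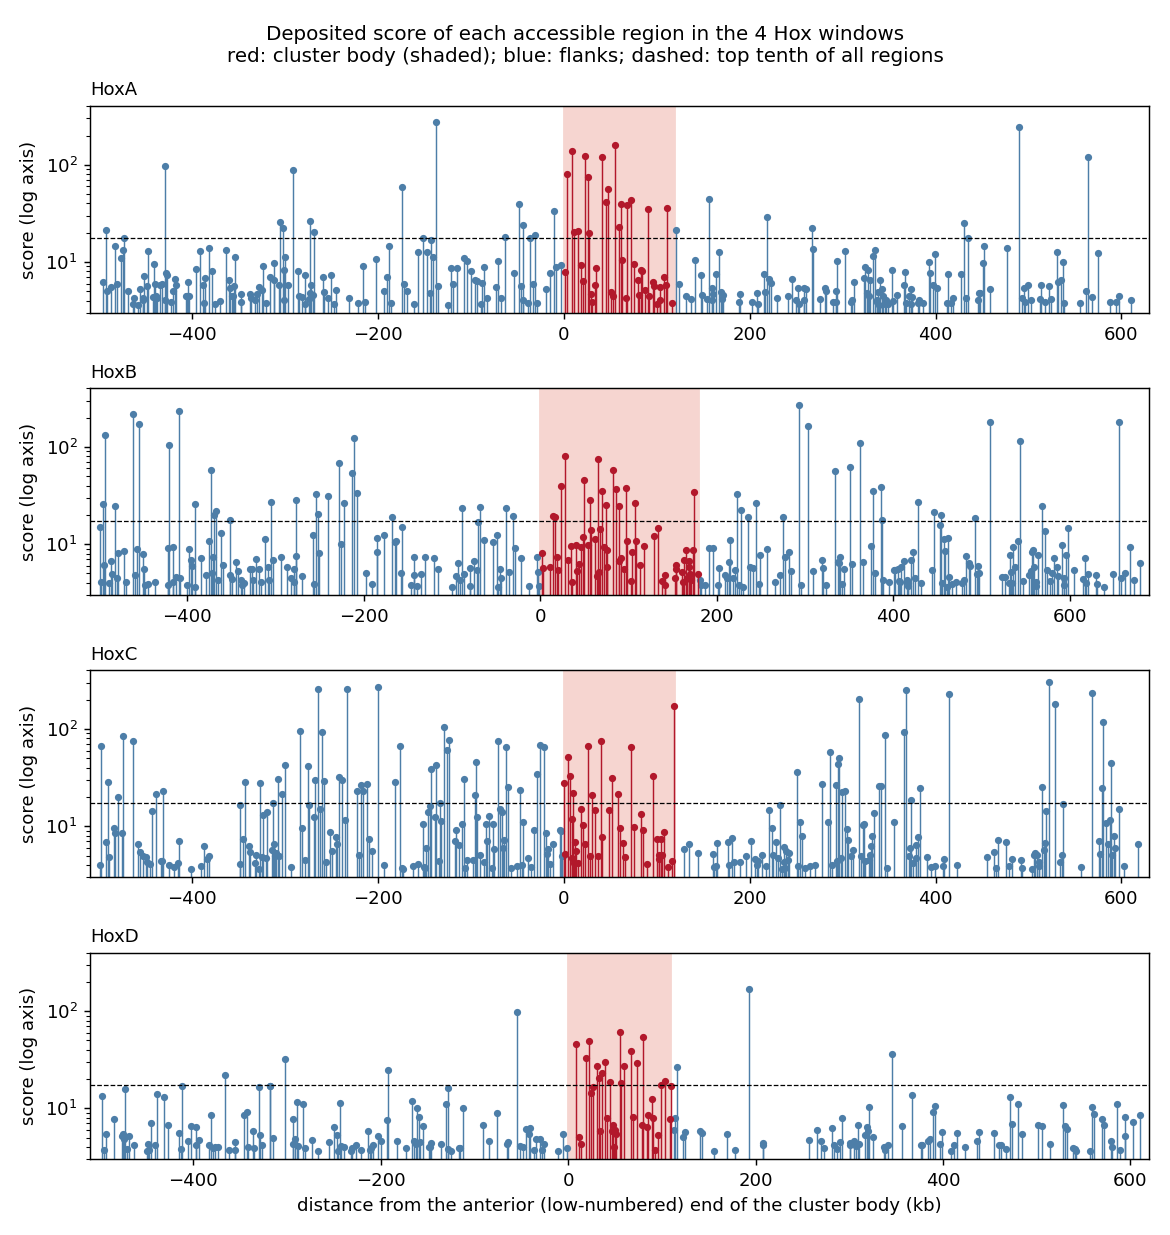
Score (log axis) of every region in the 4 windows against its distance from the anterior end of the body in kb; red points in the shaded part are body regions, blue points flank regions, and the dashed line marks the highest 10% of all scores. Strong regions crowd the HoxA and HoxD bodies, where they make up 39.5% and 43.2% of regions, while the HoxD flanks hold 7 of 198.

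In the HoxA body, 6 of the 17 strong regions scored above 70 and all of these lay in the anterior 60 kb. The highest, chr6:52153088-52155914, scored 161 and was 2827 bp wide, at 54.5 kb from the anterior end. The next, chr6:52106398-52110346, scored 137 and was the widest of the body with 3949 bp, at 8.37 kb. It was followed by chr6:52122050-52123204, at 22.6 kb, with 123 over 1155 bp. Beyond the middle of the body the highest score was 43.4, and beyond 80 kb only 2 regions were strong, with scores of 34.7 at 90.6 kb and 36.0 at 111 kb.

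The HoxB body was open over its anterior and middle parts and had a long weak stretch on the posterior side. Its highest regions were chr11:96200872-96203644, with a score of 81.1 over 2773 bp at 27.7 kb, and chr11:96164396-96165575, with 75.4 over 1180 bp at 65.0 kb. The third, chr11:96145238-96149171, scored 58.4 at 82.8 kb and was the widest with 3934 bp. Between 107 and 174 kb, over chr11:96056360-96122786, no region was strong. This stretch of 66.4 kb still held 21 regions, with a highest score of 14.8, which covered 14.1% of it. HoxB has no genes of groups 10 to 12, so this side of the cluster holds a single high-numbered Hox gene, Hoxb13. A single strong region, with a score of 34.2 over 1362 bp, followed at the posterior end, at 174 kb.

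The HoxC body had its highest region at the posterior end. This region, chr15:102750540-102752774, scored 174 over 2235 bp at 118 kb from the anterior end, next to the edge of the body where Hoxc13 is the last gene by order. It was the only HoxC body region in the highest 1% of scores. The next were chr15:102829068-102830734, with 75.8 over 1667 bp at 40.1 kb, and chr15:102842320-102846280, with 66.2 over 3961 bp at 25.7 kb, the widest body region of the 4 clusters. A group of 4 strong regions, with scores of 27.8, 51.1, 32.6 and 21.8, lay at the anterior end, the last of them with its midpoint at 10.2 kb.

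In the HoxD body strong regions were spread along most of the cluster and none was very high. The highest was chr2:74553677-74554740, with a score of 60.5 over 1064 bp at 55.8 kb, followed by chr2:74529268-74530208 with 54.4 at 80.3 kb and chr2:74587258-74588537 with 49.8 at 22.1 kb. The widest, chr2:74572419-74575230, had 2812 bp and a score of only 23.4. It was part of a run of 4 strong regions between 30.9 and 39.0 kb, which with 1 weaker region covered 83.0% of the 10 kb bin chr2:74570000-74579999. This was the most covered of all 10 kb bins of the 4 bodies.

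**Figure D3:**
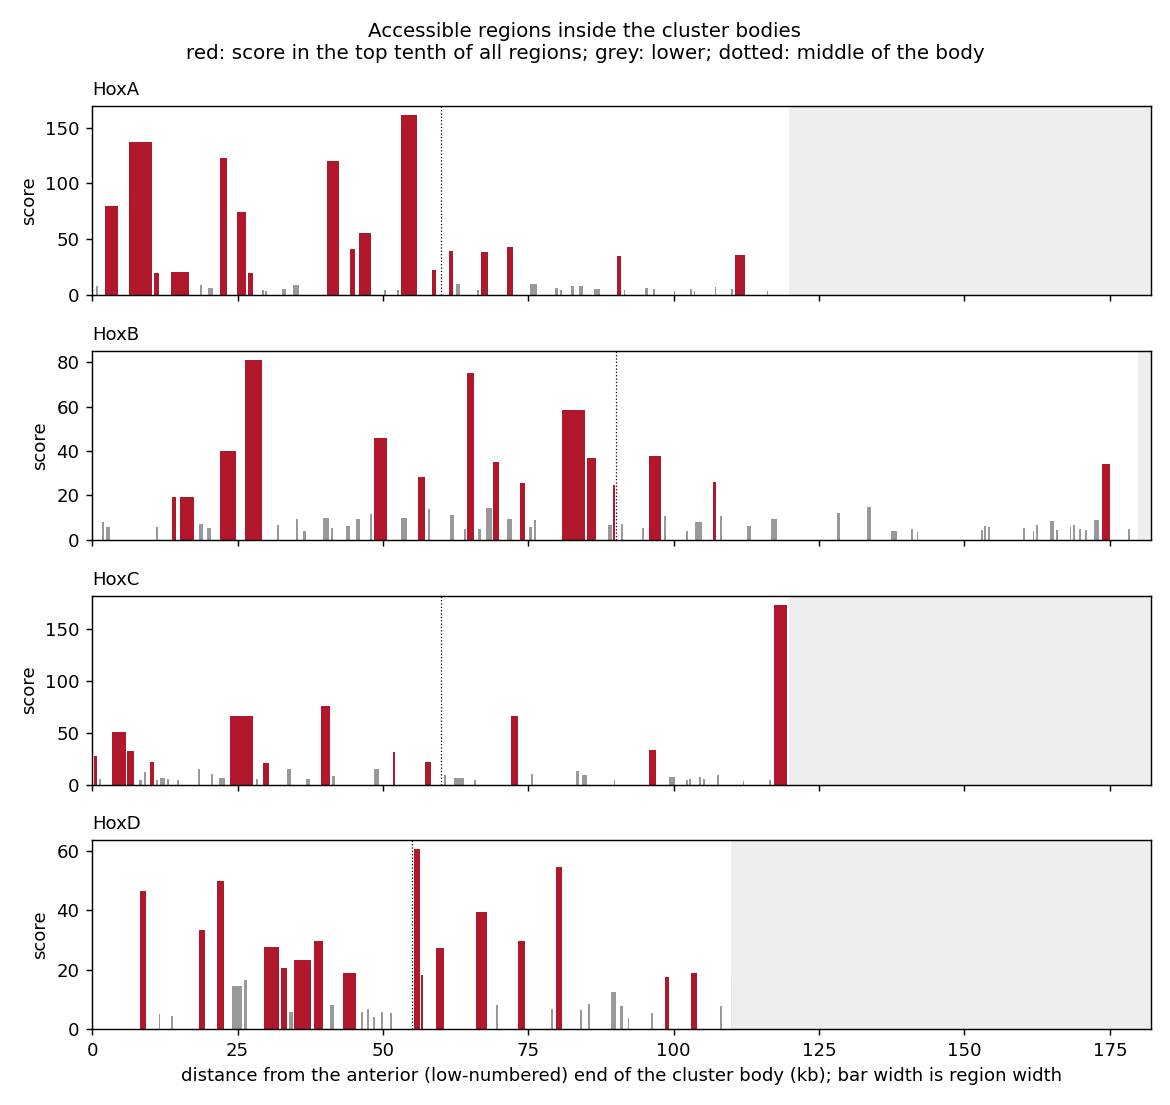
Score of each body region against its distance from the anterior end of the body in kb; bar width is region width, red marks the highest 10% of all scores and the dotted line the middle of the body. In HoxA 12 of 17 strong regions lie on the anterior side, in HoxB 12 of 15, in HoxC 9 of 12 and in HoxD 8 of 16.

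Divided at the middle, the bodies had about equal numbers of regions on both sides, but the anterior side was more covered in each cluster. The anterior side held 21 of 43 regions in HoxA (48.8%; interval 33.3% to 64.5%), 35 of 65 in HoxB (53.8%; 41.0% to 66.3%), 24 of 42 in HoxC (57.1%; 41.0% to 72.3%) and 19 of 37 in HoxD (51.4%; 34.4% to 68.1%). Its regions summed to 26.9 kb against 13.1 kb on the posterior side in HoxA, 34.5 against 16.1 kb in HoxB, 20.4 against 12.2 kb in HoxC and 19.6 against 12.5 kb in HoxD. Strong regions were split 12 to 5 in HoxA, 12 to 3 in HoxB and 9 to 3 in HoxC, but 8 to 8 in HoxD. The median score was lower on the posterior side in HoxA (20.3 and 6.42), HoxB (9.75 and 6.09) and HoxC (13.3 and 7.32), and it was 14.5 and 14.9 in HoxD.

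In 10 kb bins, the most covered parts lay between the anterior end and 90 kb. The highest share was 61.9% at 0 to 10 kb in HoxA, 64.9% at 80 to 90 kb in HoxB, 62.1% at 20 to 30 kb in HoxC and 83.0% at 30 to 40 kb in HoxD. The lowest was 9.92% at 100 to 110 kb in HoxA, 4.80% at 120 to 130 kb in HoxB, 12.9% at 50 to 60 kb in HoxC and 10.3% at 0 to 10 kb in HoxD. The first bin of HoxB was also low, at 10.3%. No body had a long stretch free of regions: the longest was 4.82 kb in HoxA (chr6:52135507-52140322), 10.9 kb in HoxB (chr11:96077147-96088055), 7.28 kb in HoxC (chr15:102786878-102794160) and 8.28 kb in HoxD (chr2:74601723-74610000), where it ends at the edge of the body.

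**Figure D4:**
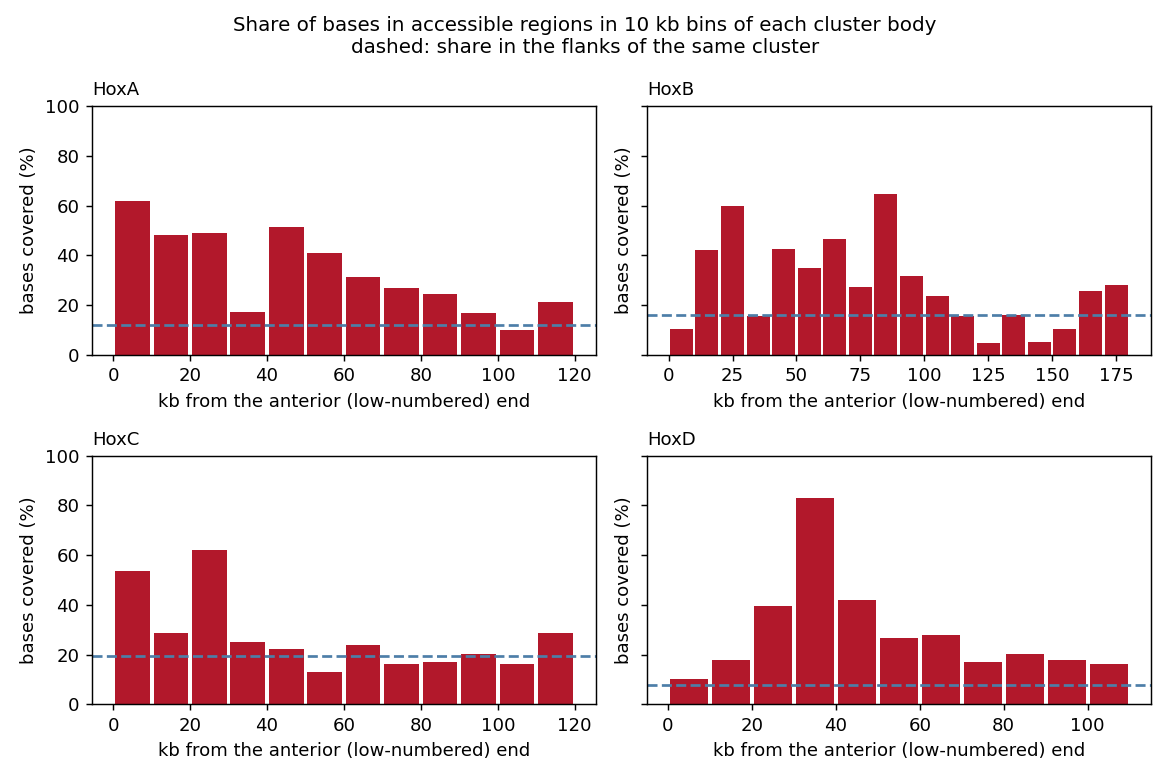
Percent of bases in accessible regions in each 10 kb bin of the 4 bodies, by distance from the anterior end in kb; the dashed line is the share in the flanks of the same cluster (12.1%, 15.8%, 19.4% and 7.55%). Every HoxD bin lies above its flanks, while HoxC bins beyond 50 kb lie between 12.9% and 28.6%.

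The flanks differed between clusters and between the sides of a cluster. The anterior flanks held 145, 131, 151 and 115 regions in HoxA, HoxB, HoxC and HoxD, and the posterior flanks 125, 138, 126 and 83. Coverage was higher on the anterior side in HoxA (14.5% and 9.75%), HoxC (22.8% and 16.0%) and HoxD (8.64% and 6.46%), and nearly equal in HoxB (15.5% and 16.2%). In HoxD, whose flanks are known as separate regulatory landscapes for the early and late phases of limb development, 4 of 115 anterior and 3 of 83 posterior regions were strong. The longest stretch free of regions in each flank was 48.8 kb in the posterior HoxD flank (chr2:74352643-74401489), 32.5 and 32.0 kb in the anterior and posterior HoxC flanks, and between 12.3 and 21.7 kb in the others.

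The strongest flank regions lay at some distance from the bodies. In HoxA they were chr6:51961623-51963285, with a score of 276 at 138 kb before the anterior end, and chr6:52589403-52590886 on the posterior side, with 242. The third scored 120 (chr6:52663343-52664602). In HoxB they were chr11:95935931-95937710 on the posterior side (267) and chr11:96638569-96639488 and chr11:96690478-96692177 on the anterior side (234 and 218). In HoxC they were chr15:102346708-102349767 on the posterior side (305) and chr15:103069572-103071724 and chr15:103133877-103136615 on the anterior side (270 and 261). In HoxD a single flank region exceeded a score of 100, chr2:74416184-74417635 on the posterior side (171), followed by chr2:74663488-74664606 at 54.0 kb before the anterior end (97.4) and chr2:74264665-74265311 (36.3). The widest flank regions were chr6:51955916-51958388 (2473 bp), chr11:95865629-95869401 (3773 bp), chr15:102997600-103000979 (3380 bp) and chr2:74911432-74913149 (1718 bp).

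In steps of 100 kb away from the body, the number of regions never rose from one step to the next on the anterior side of HoxC alone, with 39, 29, 29, 27 and 27 regions. In the other anterior flanks the step farthest from the body held more regions than the nearest, with 38 against 26 in HoxA, 31 against 27 in HoxB and 24 against 19 in HoxD. The nearest anterior step of HoxC exceeded the HoxC body in number and covered bases. It held 39 regions, against 35.0 per 100 kb in the body. Its regions summed to 30.2 kb, while 27.2% of the body was covered. By number alone, HoxA steps with 40 and 38 regions exceeded the HoxA body (35.8 per 100 kb). A posterior HoxC step with 36 regions likewise exceeded the HoxC body by number alone. The posterior side of HoxC was weakest next to the body: its first 100 kb held 19 regions, none of them strong, with a highest score of 7.66, and the next 100 kb held 36 regions, 9 of them strong. The strong region at the posterior end of the HoxC body was thus followed by about 100 kb with weak regions only.

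Each cluster had expressed genes, and their RNA levels differed widely while the densities of regions in the bodies were nearly equal. Other measures of the bodies were less alike. Strong regions made up between 23.1% (HoxB) and 43.2% (HoxD), and the median score lay between 8.22 (HoxB) and 14.5 (HoxD). In HoxA 8 of 11 genes reached 1 FPKM in every replicate, in HoxB 8 of 10, in HoxC 5 of 9 and in HoxD 4 of 9, where 50.7% of all genes reached it. Hoxb8 stood at 271, 277 and 256 FPKM in the 3 replicates, Hoxa5 at 150, 153 and 147, Hoxc4 at 101, 100.4 and 102, and Hoxd4 at 25.9, 26.4 and 25.8. These genes had the highest means of their clusters and were picked by these same values. Within HoxD, the replicates of Hoxd4 overlapped those of Hoxd3 (26.2, 25.6 and 26.1 FPKM). HoxD had the lowest of these RNA levels and a median over its genes of 0.923 FPKM, against 13.03 in HoxA, 70.2 in HoxB and 2.67 in HoxC. With 4 clusters no relation between accessibility and RNA was computed. Fewer cells of a type and less RNA or less open chromatin per cell cannot be told apart in these bulk samples.

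The genes of group 13 were below 1 FPKM, while regions were present at the posterior ends. Hoxa13 was listed at 0, 0.0475 and 0 FPKM, Hoxb13 stood at 0.913, 0.523 and 0.860, Hoxc13 at 0.0744, 0.163 and 0.192, and Hoxd13 at 0.0728, 0.0681 and 0.103. Hoxb13 was the highest of the 4 and above 0.5 FPKM in every replicate. The posterior 10 kb of the bodies were covered by regions to 21.3% in HoxA, 28.0% in HoxB, 28.6% in HoxC and 16.0% in HoxD, with highest scores of 36.0, 34.2, 174 and 18.99. Whether these regions belong to the group 13 genes was not tested, since gene positions in mm9 were not used. At the anterior ends, Hoxc4 stood between 100.4 and 102 FPKM, while Hoxd1 stood at 1.19, 1.54 and 1.02 and Hoxb1 at 0.213, 0.222 and 0.146.

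**Figure D5:**
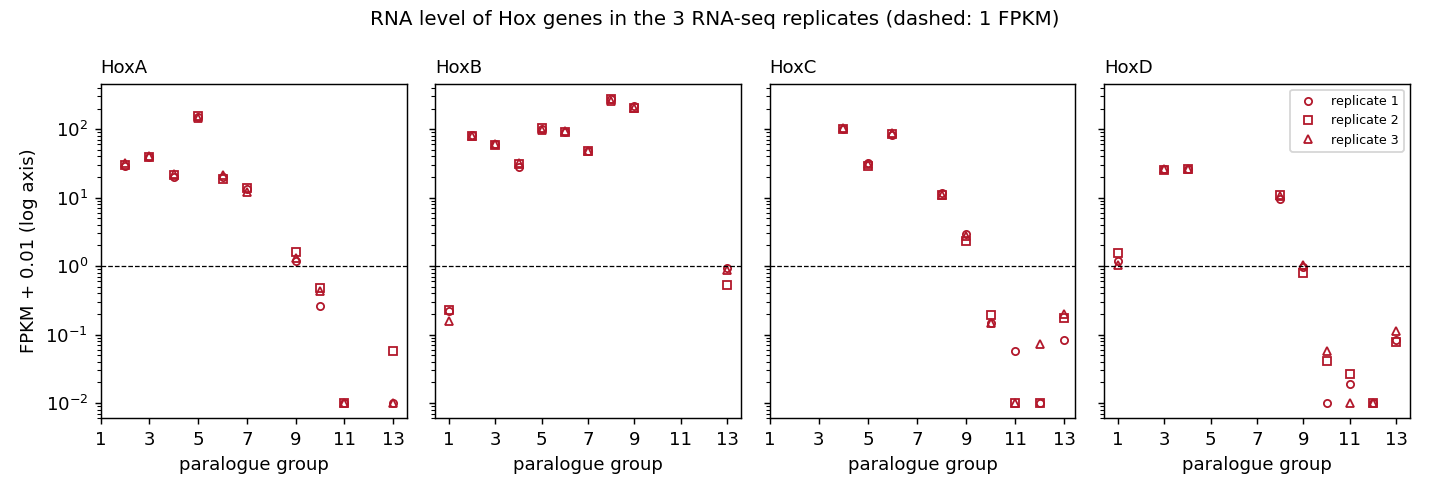
FPKM + 0.01 (log axis) of 38 of the 39 Hox genes in the 3 RNA-seq replicates by paralogue group; the dashed line marks 1 FPKM. Genes of groups 10 to 13 lie below the line in every cluster, as do Hoxb1 and Hoxd9 in at least 1 replicate.

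Genes next to the clusters were mostly expressed. Of the 5 protein-coding genes beyond each end by gene order, 39 of 40 were in the table and 33 reached 1 FPKM in every replicate, with a median of 17.5 FPKM. Of all genes, 50.7% reached this level. Their distance from the clusters in mm9 was not used, so some may lie outside the windows. Beyond the anterior end of HoxC lie Smug1, a DNA repair glycosylase gene, at 64.1, 62.2 and 60.8 FPKM, Cbx5, a heterochromatin protein gene, at 44.4, 41.8 and 42.6, and Hnrnpa1, an RNA-binding protein gene, at 294, 315 and 286. The 5 genes on this side had a median of 58.5 FPKM, the highest of the 8 sides. Beyond the anterior end of HoxA, Hnrnpa2b1, of the same family, stood at 209, 198 and 213 FPKM and Cbx3 at 131, 132 and 140. The Evx homeobox genes, which adjoin the posterior ends of HoxA and HoxD, were low: Evx1 stood at 2.61, 2.26 and 2.44 FPKM and Evx2 at 0.741, 0.472 and 0.840. Next to HoxB, Ttll6, Calcoco2 and Skap1 were below 1 FPKM in every replicate.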

How the data were processed

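Accessible regions came from ATAC-seq of 3 samples and RNA levels from RNA-seq of 3 further samples, grouped by their titles. Each line of the deposited region list holds mm9 coordinates and a score, whose scale is not stated. The region caller, its threshold, the Tn5 offset and whether samples were pooled before calling are likewise not stated in the labels. Coordinates are printed 1-based. The RNA table was read as FPKM made by the authors, since the submitters' processing notes name Bowtie, Cufflinks and mm9, without versions. Read depth is unknown for both assays.

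Python 3.11.15, pandas 2.3.3, numpy 2.4.6 and scipy 1.17.1 were used. Regions touching a window or body by 1 base counted as in it. Intervals are exact binomial (Clopper-Pearson), transformed for density ratios, and Newcombe's for differences of shares, all at 95%. Tiles covered the 19 autosomes from the first base to the last region, and a region was counted in the tile of its midpoint. The counting was tested on simulated regions. The level of 1 Hox gene is not reported here, though it is in the counts and medians over genes. Expressed means that all 3 replicates of a gene reached 1 FPKM. Named were Hox and Evx genes, 5 protein-coding neighbours on each side and, per cluster, the 3 highest and the widest regions and the longest stretch free of regions in body and flanks. Further regions and genes were chosen after their values were seen. The members and lists were chosen with earlier results of these data known. Gene order came from a RefSeq table of GRCm38.p6, and no mm9 genome or annotation was used. Whether the replicates are separate cultures is not stated, so their spread may be technical.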

Additional observations from a re-analysis of the deposited data

How the results depend on the processing

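The density, the share of strong regions and the covered share stayed higher in value in the body than in the flanks under the alternatives run. In HoxC, however, every interval of the density ratio included equal densities. Every HoxC interval of the difference in shares of strong regions included no difference. The HoxA density interval included equal densities unless regions with low scores were left out. The share of body regions on the anterior side crossed 50% in HoxA (53.1% with regions at or above the median score) and in HoxD (45.8% in the outer parts and 48.5% at or above the median score), and all intervals of this share include 50%. Counting only regions with a score at or above the median, the upper quartile or the highest 10% of all regions raised the density of body over flanks to 1.85, 2.597 and 5.67 in HoxA and to 3.41, 5.17 and 20.8 in HoxD, with no interval that included equal densities. In HoxB the upper quartile gave 2.01 (1.32 to 3.00). Merging of regions closer than 200 bp, assignment by midpoint, bodies widened by 20 kb and flanks of 250 kb kept all 4 density ratios within their intervals, but with the widened body the interval of HoxB (0.946 to 1.61) included equal densities. With the highest 5% of scores in place of 10%, the excess of the HoxD body over its flanks was 14.7 percentage points, below the 26.9 of HoxA, while with 10% HoxD came first. With the upper quartile the excess in HoxB was 17.4 points (4.07 to 30.2), and its interval no longer included no difference. The percentile of a body among tiles depended on what was counted: covered bases gave 99.96, 99.8, 99.2 and 99.6 for HoxA, HoxB, HoxC and HoxD, and summed scores 99.6, 92.9, 97.3 and 95.1. Without tiles free of regions, an alternative chosen after seeing the data as were those on covered shares, the number of regions stood at percentile 86.6 in HoxA, 84.6 in HoxC and 81.4 in HoxD. With regions at or above the upper quartile of scores, the covered share of body over flanks rose to 4.76 in HoxA and 8.21 in HoxD. Leaving out each RNA-seq replicate changed no count of expressed Hox genes. At 0.5 FPKM the counts were 8, 9, 5 and 5, and at 5 FPKM 7, 8, 4 and 3. No paired analysis was possible because the RNA-seq and ATAC-seq samples were not compared with each other and the regions have no value per sample. The unknown depth and scale of the score limit all comparisons of scores to ranks within this set.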

Other observations

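The hexamer AGGTCA, the half-site bound by retinoic acid receptors and other nuclear receptors, was searched on both strands in the 250 bases upstream of the Hox start sites. It was present at 6 of 24 Hox start sites (25%) and at 14.02% of 32851 promoters. The genes with a match were Hoxb4, Hoxc4, Hoxd3, Hoxd4, Hoxd8 and Hoxd10, of which all but Hoxd10 were expressed, and none of the 10 HoxA start sites held it. Of the 24 start sites, 13 belonged to expressed genes. HoxB gave only 3 of them and HoxC only 1, against 10 for HoxD, so these counts are too small to compare clusters or expression. The pair of half-sites in the same direction with a spacer of 5 bases, a form known from retinoic acid response elements, was at 0 of the 24 and at 3 of all promoters. A match is a description of these letters, and both searches were chosen after the data were seen.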
